A study of Homo sapiens with 1 sample.

Results

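The transcription factor genes SIX3, SIX6, RAX, OTX1, OTX2, HESX1 and NKX2-1, which mark the eye field and the anterior neural plate, were followed through 1 single-cell library. They were chosen by name and make up 7 of the 33538 genes listed in the count table. The cells were H9, an established human embryonic stem cell line, with the human form of the accelerated region HAR123 (hHAR123, genotype WT), differentiated into neural progenitor cells (NPCs). Cultures were held for 2 days in N2 medium with Rock inhibitor and with Dorsomorphin (1 μM) and SB431542 (10 μM), which block BMP and activin/TGF-beta signalling. Both blockers stayed in for 5 days as rotating embryoid bodies. These were replated on Matrigel for 7 days in medium with N2 and Gem21, and dead cells were removed before loading. Independent clones had been pooled and the cells were collected ahead of rosette selection, with a capture target of 20000 cells. Cells of the pooled clones cannot be told apart in the table.

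All 7 genes encode homeodomain transcription factors, which bind DNA through a conserved helical domain. The eye field is the part of the anterior neural plate that gives rise to the retina. SIX3, SIX6 and RAX are among its best known regulators, and OTX2 prepares the anterior plate for it. HESX1 is needed for the forebrain and the pituitary, OTX1 for the cortex and sense organs, and NKX2-1 marks the hypothalamus and the ventral telencephalon.

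The set of RefSeq (GRCh38.p14) start sites used here covered 6 of the 7 genes, with 9 windows in all, and held no window for SIX3. The 250 bases upstream of 4 of those starts follow, 5′ to 3′ on the gene's strand. RAX and OTX1 are shown because their number of shared cells stood highest over the expected number among the pairs, SIX6 because it went the other way from most of the genes, and the downstream start of HESX1 because it holds a homeodomain core. Capitals mark TAATTA, a core of homeodomain binding sites that reads the same on both strands.

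RAX, chr18:59273455-59273704, minus strand: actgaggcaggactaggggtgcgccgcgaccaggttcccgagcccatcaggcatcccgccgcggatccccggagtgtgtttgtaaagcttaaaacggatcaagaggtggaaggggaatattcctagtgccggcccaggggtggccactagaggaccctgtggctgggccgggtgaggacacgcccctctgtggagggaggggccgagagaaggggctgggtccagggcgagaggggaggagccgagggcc
OTX1, chr2:63050580-63050829, plus strand: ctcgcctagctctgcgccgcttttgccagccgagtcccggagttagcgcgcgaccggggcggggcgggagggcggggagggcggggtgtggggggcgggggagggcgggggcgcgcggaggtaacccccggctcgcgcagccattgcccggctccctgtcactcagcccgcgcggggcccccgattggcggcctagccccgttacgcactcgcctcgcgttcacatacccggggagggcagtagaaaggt
SIX6, chr14:60508896-60509145, plus strand: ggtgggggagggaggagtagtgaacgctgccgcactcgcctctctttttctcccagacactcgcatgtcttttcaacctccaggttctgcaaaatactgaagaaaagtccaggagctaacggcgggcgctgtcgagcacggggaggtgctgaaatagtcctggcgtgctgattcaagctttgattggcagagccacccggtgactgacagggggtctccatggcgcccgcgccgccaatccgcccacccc
HESX1, chr3:57199979-57200228, minus strand: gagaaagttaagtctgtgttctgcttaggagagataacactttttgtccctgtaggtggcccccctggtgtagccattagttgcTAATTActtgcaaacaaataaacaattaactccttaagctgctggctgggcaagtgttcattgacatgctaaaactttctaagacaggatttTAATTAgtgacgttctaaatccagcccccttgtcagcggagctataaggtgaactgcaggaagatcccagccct

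TAATTA occurred at 2 places before the downstream start of HESX1, which lies inside the HESX1 gene span, and at 1 place before the downstream start of NKX2-1. The other 7 windows held none. Among all 35116 windows of this length 4.35% held it. The core bound by OTX proteins, TAATCC, was searched on both strands and was in none of the 9 windows, against 5.62% of all windows. These matches describe the letters and are not evidence of binding.

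The library held 14726 barcodes. Of these 13925 (94.6%) had 2000 to 10000 detected genes and a mitochondrial share below 0.1, with a median of 17900 unique molecular identifiers (UMIs), which stand for single RNA molecules. Clustering without the 7 genes and their antisense transcripts gave 10 clusters in 3 classes. Forebrain NPC-like cells (11670 cells, 83.8%, 7 clusters) carried the progenitor factor SOX2 at 429 CPM (counts per 1000000 UMIs). Contractile NPC-like cells (2149 cells, 15.4%, clusters 3 and 8) carried TAGLN, an actin-binding protein of smooth muscle, at 4308 CPM, against 234 CPM in forebrain NPC-like cells. Differentiating-progenitor-like cells (cluster 9, 106 cells) carried the neuronal gene STMN2 at 2372 CPM. Median depth was 16686, 42066 and 13414 UMIs per cell in the 3 classes. Cluster 8 (167 cells) stood apart with a median mitochondrial share of 0.140%, and leaving it out moved the contractile to forebrain ratios of the 7 genes by less than their counting error. With 1 library there is no replicate, so the values below are descriptions with no test, and their 95% intervals cover counting error only.

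SIX3 and OTX2 were abundant and the other 5 genes were rare. SIX3 stood at 290.5 CPM and was seen in 94.5% of cells, and OTX2 stood at 86.2 CPM in 75.7%. HESX1 reached 6.73 CPM (12.7% of cells), OTX1 5.22 CPM (9.95%), SIX6 3.79 CPM (5.16%), RAX 3.43 CPM (6.58%) and NKX2-1 1.08 CPM (1.62%). After each cell was thinned at random to 5000 UMIs, SIX3 was found in 72.1% of cells, OTX2 in 37.0% and each of the others in at most 3.80%. Thinning left out 28 shallower cells, of which 19 were forebrain NPC-like. Per kilobase of exon the levels ran from 107 CPM for SIX3 and 25.4 CPM for OTX2 through 4.51 CPM for HESX1, 1.46 CPM for SIX6, 1.08 CPM for OTX1 and 0.906 CPM for RAX to 0.341 CPM for NKX2-1, although counts taken at the 3′ end need not scale with length.

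The genes lie at 7 places in the genome (GRCh38, GENCODE version 44). SIX3 is at chr2:44941702-44946071 and OTX1 at chr2:63050057-63057836, both on the plus strand. Chromosome 14 holds SIX6 (chr14:60509146-60512850, plus), OTX2 (chr14:56799905-56816693, minus) and NKX2-1 (chr14:36516392-36521149, minus). RAX is at chr18:59267035-59274086 and HESX1 at chr3:57197838-57227606, both on the minus strand. SIX3, OTX2 and NKX2-1 each have an antisense partner that overlaps them: SIX3-AS1 (17.9 CPM, 215 shared bases), OTX2-AS1 (44.7 CPM, 3511 bases) and NKX2-1-AS1 (8 UMIs, 1872 bases). The sources used here give Cell Ranger at default settings and do not name the strand used in counting. Whether reads from the shared stretches were kept apart was not tested.

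Among the eye field factors, SIX3 was present in every cluster, between 113 CPM in the differentiating-progenitor-like cells and 378 CPM in cluster 1. Cluster 1 is a forebrain NPC-like cluster in which 61.3% of cells were called in G1. Within the forebrain class SIX3 was lowest in cluster 6 (140 CPM) and at least 265 CPM in the other 6 clusters. SIX6, a close relative of SIX3 that keeps retinal progenitors dividing, had 0.242 CPM (4 UMIs) in cluster 6 and 2.73 to 4.06 CPM in the other forebrain clusters. It stood at 5.53 CPM in cluster 3 and 8.48 CPM (15 UMIs) in cluster 8, and cluster 9 held no UMI of it, a count that leaves room for up to 1.84 CPM. RAX, needed for the optic vesicle to form, ran from 2.00 CPM in cluster 6 to 5.62 CPM in cluster 2 within the forebrain class and stood at 0.723 CPM in cluster 3.

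The OTX genes and HESX1 followed another order. OTX2 was highest in cluster 6 (168 CPM), between 82.0 and 115 CPM in the other forebrain clusters, and 28.3 CPM in cluster 3. OTX1 was likewise highest in cluster 6 (8.65 CPM, 143 UMIs), although its interval overlapped those of several other forebrain clusters, and it had 0.551 CPM in cluster 3. HESX1 lay between 5.91 and 9.72 CPM in the forebrain clusters and at 2.93 CPM in cluster 3. NKX2-1 lay between 1.03 and 2.36 CPM in the forebrain clusters, with 4 to 95 UMIs each, and at 0.238 CPM in cluster 3. For NKX2-1 the intervals of all 7 forebrain clusters overlapped.

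**Figure D1:**
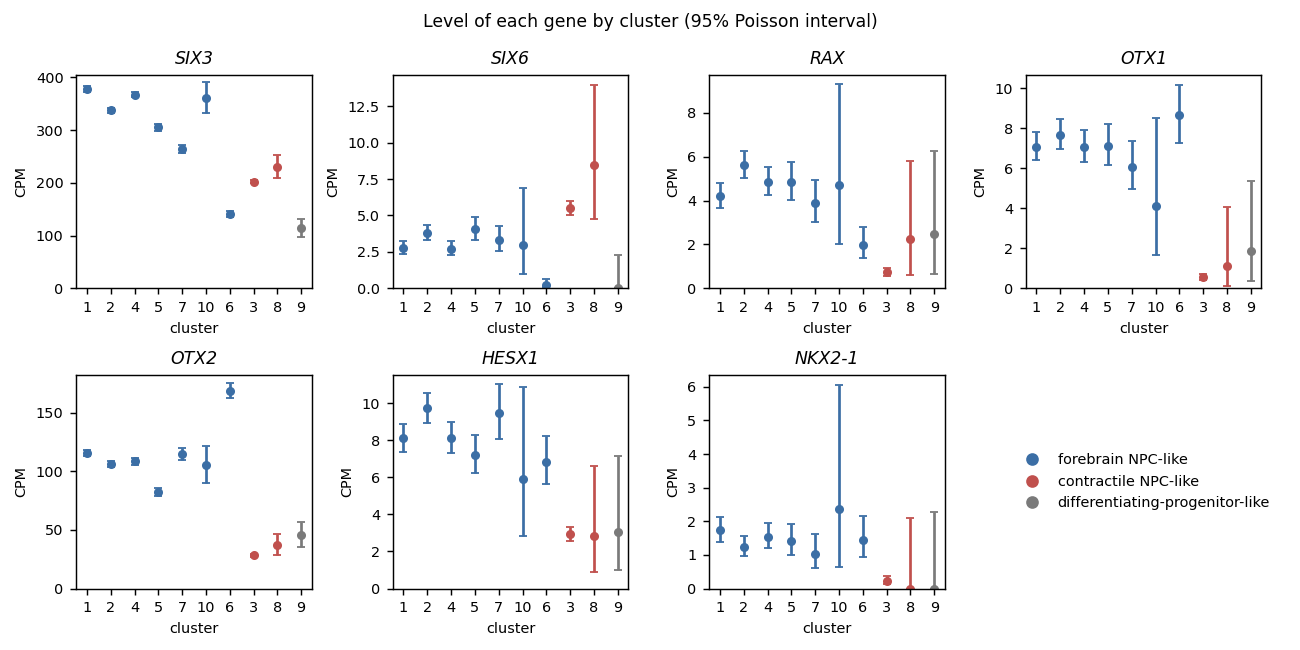
Level of each of the 7 genes in CPM (vertical axis, from 0) in the 10 clusters (horizontal axis, grouped by class); points are pooled levels and bars their 95% Poisson intervals. SIX3 and SIX6 dip in cluster 6 (140 and 0.242 CPM), where OTX2 peaks at 168 CPM, and OTX1, OTX2 and HESX1 are lower in the contractile clusters 3 and 8 than in each forebrain cluster.

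By CPM, contractile NPC-like cells had 6 of the 7 genes at least 1.5-fold below the forebrain class, and 1 above it. This stands beside 38.7% of all 20523 genes compared that were lower by that much and 12.4% that were higher, and the median gene had a ratio of 0.779. OTX1 differed most, at 0.561 against 7.25 CPM (ratio 0.0774, 0.0577 to 0.102). NKX2-1 (0.160), RAX (0.164), OTX2 (0.255) and HESX1 (0.348) followed. SIX3 stood at 202 CPM against 330 CPM (ratio 0.613, 0.604 to 0.623), close to the 1.5-fold limit.

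The contractile class was also the deeper class (median 42066 against 16686 UMIs). Counted per cell instead, SIX3 was higher in contractile cells (8.89 against 6.18 UMIs, ratio 1.44), and OTX1 (0.181), NKX2-1 (0.376), RAX (0.384), OTX2 (0.599) and HESX1 (0.816) were still lower. At 5000 UMIs per cell, SIX3 had a ratio of 0.687, OTX1 of 0.0593 and NKX2-1 had no UMI in 2141 contractile cells, so that 5 of the 7 genes stayed past the limit. No class here is known to lack these genes. RAX was found in 0.374% of thinned contractile and 2.26% of thinned forebrain NPC-like cells, and OTX1 in 0.234% and 3.76%, with the lower share in the deeper class. The part of free RNA in the low shares was not tested.

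**Figure D2:**
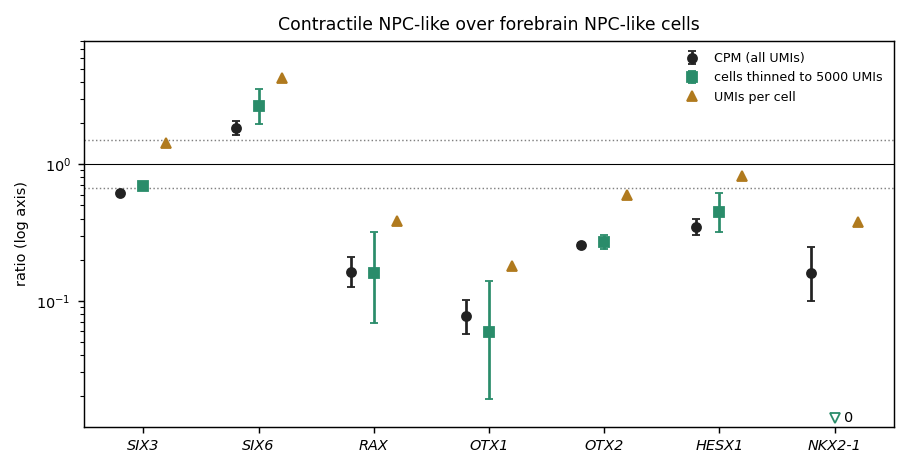
Ratio of contractile to forebrain NPC-like level for each gene (log vertical axis), by CPM and after thinning to 5000 UMIs, both with 95% intervals, and by UMIs per cell, drawn without an interval. Dotted lines mark 1.5-fold in each direction; SIX6 lies above 1 on all 3 scales, and the open triangle stands for no NKX2-1 UMI in thinned contractile cells.

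SIX6 was the gene with the higher value in contractile NPC-like cells, at 5.58 against 3.04 CPM (ratio 1.84, 1.63 to 2.06). The size of that ratio depended on where a set of cells was placed. With the 7 genes and their antisense transcripts allowed among the genes used for clustering, the ratio was 0.952 (0.828 to 1.09), at resolution 1.0 it was 1.16, and at resolution 0.2 it was 2.14. It was 3.75 with a mitochondrial limit of 0.05 and 4.30 by UMIs per cell. With cells thinned before clustering the contractile and forebrain levels were 4.19 and 3.66 CPM. With the 8% highest doublet scores removed they were 4.34 and 3.70 CPM. At resolution 1.0, 608 of the 2149 contractile cells became forebrain NPC-like and 589 met no class name. Those 589 cells count in the contractile values above, but they are left out of the groups compared below. Neither of these clusterings at 0.5 and 1.0 used the 7 genes, and the split was made after the first results were seen. Set against each other clustering in turn, the number of contractile cells that became forebrain NPC-like was 630 with the 7 genes allowed, 428 with cells thinned first, 369 with the 8% highest doublet scores removed and 10 at resolution 0.2. It was 4 with a mitochondrial limit of 0.05, which kept 6289 of the 13925 cells.

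Those 608 cells held the highest SIX6 level of the 3 groups, 12.9 CPM (11.3 to 14.6, 249 UMIs), against 3.05 CPM in the 11565 cells that were forebrain NPC-like at both resolutions and 4.47 CPM in the 952 that were contractile at both. They had a median of 28721 UMIs, between the 16715 and 43552 of the other groups. Of the 608 cells 41 (6.74%) were among those with the highest doublet scores, beside 7.86% and 7.56% in the other groups, and without them, a check chosen after seeing the data, SIX6 was at 13.6 CPM. At 5000 UMIs SIX6 was found in 5.26% of them, against 1.19% and 2.22%. SIX3 was also high in these cells, at 343 CPM against 331 and 218 CPM. The other 5 genes were below the forebrain group. OTX2 lay between the groups, at 40.6 CPM against 111 and 26.0 CPM, and so did HESX1, at 4.96 CPM against 8.43 and 2.62 CPM. RAX (0.981 against 4.54 and 0.986 CPM) and OTX1 (0.568 against 7.26 and 0.577 CPM) were at the level of the contractile group, and NKX2-1 was at 0.413 against 1.47 and 0.264 CPM.

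Some class markers and listed genes, picked after their values were seen, describe the same 608 cells. TAGLN stood at 3597 CPM, against 235 and 5746 CPM, while COL8A1, a collagen that leads cluster 3, was at 8.32 CPM against 193 CPM in the cells contractile at both resolutions. DLX5, a homeobox gene of the plate border and placodes, was at 102 CPM against 20.3 and 56.4 CPM. VAX1, which marks the optic stalk and ventral forebrain, was at 83.9 CPM against 47.2 and 39.8 CPM. LHX2, needed for the optic vesicle and cortex, was at 52.1 CPM against 172 CPM in the forebrain group, and EMX2, a dorsal telencephalic gene, at 6.35 against 64.7 CPM.

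**Figure D3:**
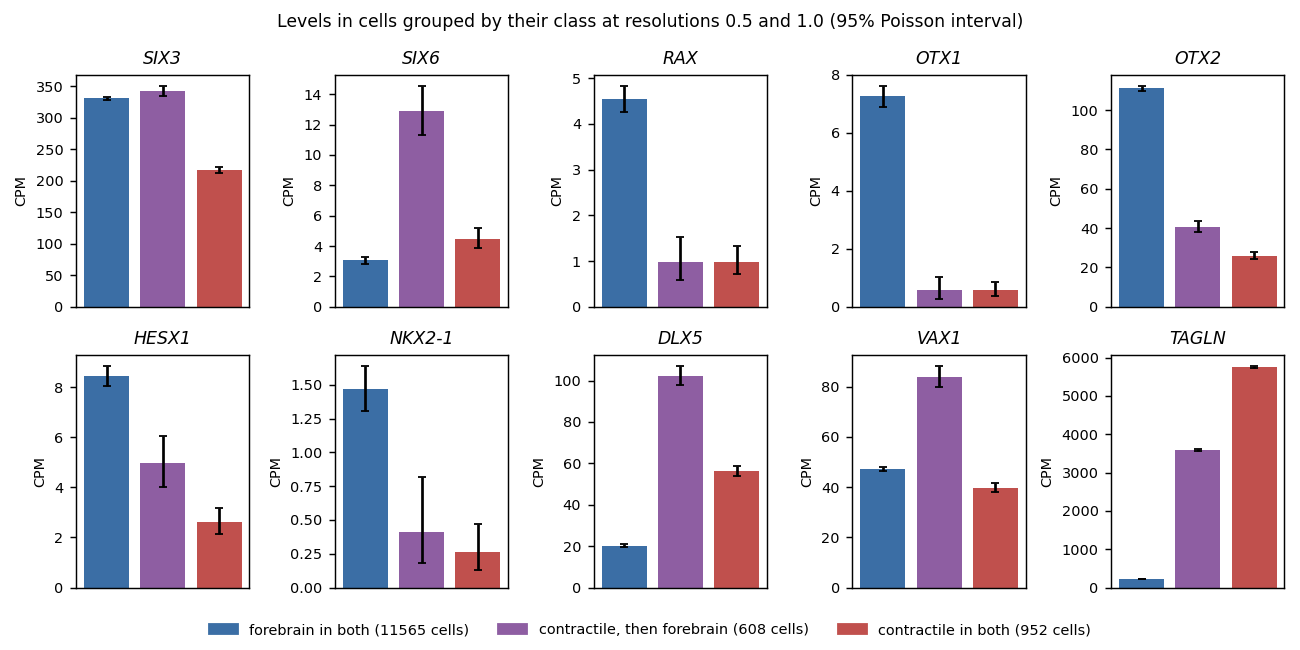
Level in CPM (vertical axes, each from 0) of the 7 genes and of DLX5, VAX1 and TAGLN in 3 groups of cells set by their class at clustering resolutions 0.5 and 1.0; bars are pooled levels with 95% Poisson intervals. SIX6 is highest, at 12.9 CPM, in the 608 cells that changed class, where OTX1 is as low as in the contractile cells.

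Cluster 6, led by C1orf61 and EPHA3, separated SIX3 from OTX2. SIX3 was 0.406 times its level in the other forebrain NPC-like clusters (140 against 345 CPM), SIX6 0.0740 times and RAX 0.415 times (2.00 against 4.805 CPM), while OTX2 was at 1.58 times (168 against 107 CPM). Of the 7 genes 3 were thus at least 1.5-fold lower, against 9.41% of the 19598 genes compared, and 1 was at least 1.5-fold higher, against 12.4%. OTX1 (1.21), HESX1 (0.802) and NKX2-1 (0.998) lay within the limits. The antisense transcripts went the same way as their partners, SIX3-AS1 at 0.214 times and OTX2-AS1 at 1.48 times.

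There were 1.202 OTX2 UMIs for each SIX3 UMI in cluster 6 (1.14 to 1.27), and 0.268 to 0.432 in the other 6 forebrain clusters. In the contractile clusters the ratio was 0.140 in cluster 3 and 0.160 in cluster 8, and it was 0.400 (0.301 to 0.526) in differentiating-progenitor-like cells. This ratio is taken within each cluster, so total depth does not enter it. The median depth of cluster 6 was 13356 UMIs, close to the 13929 of cluster 1, where the ratio was 0.305.

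**Figure D4:**
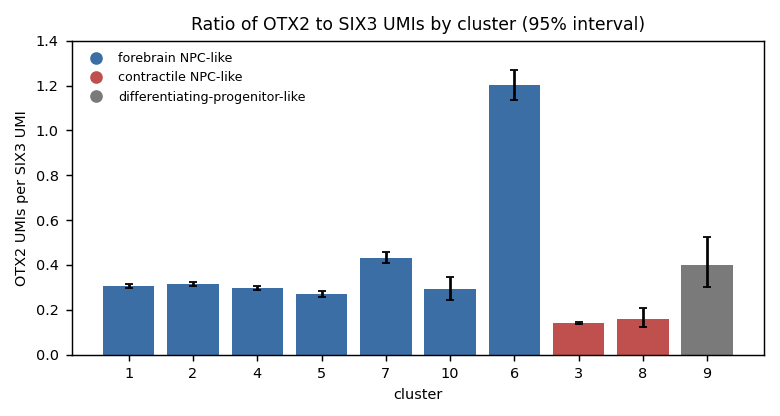
Number of OTX2 UMIs per SIX3 UMI (vertical axis, from 0) in the 10 clusters, coloured by class; bars are ratios of summed UMIs with 95% intervals. Cluster 6 stands at 1.202 and every other cluster at or below 0.432.

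Other genes of the fixed lists describe cluster 6 further. Of the 14 hypothalamic and ventral genes 6 passed the UMI minimum, with 3 at least 1.5-fold higher and 1 lower. Among the higher ones, GSX2 (140 UMIs in the whole class) met that minimum only through its UMIs in cluster 6. It could therefore be called higher but not lower. GSX2 was at 6.41 against 0.168 CPM and DLX2 at 4.36 against 0.292 CPM, while the hedgehog effector GLI1 was at 0.437 times its level elsewhere on 2 UMIs against 56, PTCH1 at 1.28 times and NKX6-2 at 1.05 times. NR2E1, a regulator of neural and retinal stem cells, was at 5.56 against 0.356 CPM, and EMX2 at 137 against 59.6 CPM. On the other side were DLX5 (1.03 against 21.7 CPM), VAX1 (18.6 against 49.3 CPM) and FZD5, a Wnt receptor of the eye field (146 against 281 CPM). Of the 8 telencephalic genes 4 were at least 1.5-fold higher in cluster 6 and 0 were lower, beside the 12.4% and 9.41% of all genes compared. Of the 17 optic vesicle and retina genes 9 passed the UMI minimum, with 3 higher and 3 lower. The higher ones were the pigment enzymes DCT (9.13 against 0.604 CPM) and TYR (5.14 against 3.19 CPM) and the photoreceptor regulator CRX (2.88 times, on 12 UMIs in cluster 6). The lower ones were VAX1, the pigment gene PMEL (24.7 against 41.2 CPM), which was the most abundant pigment gene of the list, and PAX2, with 0 UMIs against 187. Of the 5 other eye field genes (PAX6, LHX2, NR2E1, TBX3 and FZD5) 4 passed the UMI minimum, with 1 higher and 1 lower.

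The differentiating-progenitor-like cells had lower values for all 7 genes, against 32.3% of all 19667 genes compared that were at least 1.5-fold lower. SIX3 was at 113 against 330 CPM (ratio 0.344, 0.296 to 0.397) and OTX2 at 45.4 against 111 CPM (ratio 0.407, 0.320 to 0.511). The other 5 rested on 0 to 5 UMIs each in the 106 cells, and for RAX (4 UMIs, ratio 0.534, 0.145 to 1.37) and NKX2-1 (0 UMIs) the interval included a ratio of 1.

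Forebrain NPC-like cells were also grouped by a cell cycle phase called from their expression, a call that is no measure of cycling by itself. SIX3 was at 372 CPM in G1, 345 CPM in G2/M and 297 CPM in S, and OTX2 at 131, 113 and 102 CPM. RAX was lowest in G1, at 3.64 CPM (3.08 to 4.28), against 4.496 CPM in S and 5.14 CPM (4.68 to 5.65) in G2/M. OTX1 was also lowest in G1, at 6.33 CPM (5.58 to 7.15), against 7.95 CPM (7.38 to 8.55) in S and 6.95 CPM in G2/M. Median depth was 13258 UMIs in G1, 16697 in S and 21503 in G2/M. At 5000 UMIs a cell the order of SIX3 and OTX2 held, with no overlap between S and G1, at 290 against 380 CPM for SIX3 and 103 against 132 CPM for OTX2. At that depth the intervals of RAX (3.88, 5.00 and 4.78 CPM in G1, S and G2/M) and of OTX1 (6.57, 8.54 and 7.998 CPM) overlapped. The pooled intervals of all 3 phases overlapped for SIX6, HESX1 and NKX2-1. Phases and clusters overlap: in cluster 6, 56.0% of cells were called in S, and in cluster 5, 95.9%. In cluster 6 the proliferation gene MKI67 stood at 40.4 CPM and the topoisomerase TOP2A at 51.4 CPM, against 219 and 388 CPM in the whole class. Without cluster 6, a check chosen after seeing the data, SIX3 was at 406 CPM in G1, 347 CPM in G2/M and 318 CPM in S, and OTX2 at 120, 112 and 95.7 CPM.

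How UMIs were spread over cells differed between the rare genes. If every cell had the same share of SIX6, its 1192 UMIs would have been found in 1124 cells, given each cell's depth, but 719 cells held them. There were 109 cells with 3 or more SIX6 UMIs, against 3.46 if the share were even, with up to 10 UMIs in a cell. Of these cells 62 were contractile and 47 forebrain NPC-like, with a median of 34655 UMIs. NKX2-1 was as concentrated: its 340 UMIs were in 225 cells against 334 if even, 24 cells had 3 or more against 0.0901, and the 50 richest cells held 43.2% of them. Of those 24 cells 21 were forebrain NPC-like. By the number of cells holding a UMI, RAX (916 of 1023 cells), OTX1 (1386 of 1516) and HESX1 (1765 of 1911) came much closer to an even spread. Cells with 3 or more UMIs still exceeded an even share, at 27 against 2.61 for RAX, 38 against 8.53 for OTX1 and 61 against 17.2 for HESX1.

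Co-detection was read in the 13897 cells thinned to 5000 UMIs, as the number of cells with a UMI of both genes over the number given by the product of their shares. A ratio of 1 is what genes that are unrelated across cells would give. Of the 21 pairs, 2 reached 1.2: RAX with OTX1 and RAX with HESX1. Read over 14047 other genes (14048 for NKX2-1), the share at 1.2 or more was 15.5% for RAX, 14.1% for OTX1, 10.7% for HESX1, 16.8% for SIX6, 25.4% for NKX2-1, 1.47% for OTX2 and 0.00712% for SIX3. SIX3 is in so many cells that its ratio cannot exceed 1.39, so pairs with it had little room.

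RAX and OTX1 were together in 24 cells, against 8.69 expected (ratio 2.76, 1.77 to 4.11). OTX1 was in 8.82% of the 272 cells with RAX and in 3.08% of the cells without it. All 24 cells were forebrain NPC-like, and within that class alone the ratio was 2.43. With the expected number summed over clusters it was 2.42. This thinning was at the high end: over all possible thinnings the mean was 13.6 cells against 7.58 expected, a ratio of 1.79. Of these values 2.76 is the highest and 1.79 the lowest.

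RAX and HESX1 shared 14 cells against 10.3 (ratio 1.35, 0.741 to 2.27), and this excess vanished over all thinnings, at 0.996. RAX and SIX6, both of the eye field, shared 4 cells against 3.88 expected (ratio 1.03, 0.281 to 2.64), a range too wide to show an excess or a lack. SIX6 and OTX1 shared 2 cells against 6.33 (ratio 0.316, 0.0383 to 1.14), with 0.333 over all thinnings. SIX6 and OTX2 shared 65 cells against 73.3 (ratio 0.886), with 0.744 over all thinnings. NKX2-1 was in no cell with SIX6 or with RAX, where 1.04 and 1.43 cells were expected, so a lack could not have been seen at this depth.

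SIX3 and OTX2, the 2 abundant genes, were together in 3696 cells against 3708 expected (ratio 0.997, 0.965 to 1.03). SIX3 and SIX6 shared 170 cells against 143 (ratio 1.19, 1.02 to 1.38), and OTX1 and OTX2 shared 197 cells against 164 (ratio 1.198, 1.04 to 1.38). The latter was just under the limit of 1.2 and came to 1.07 with the expected number summed over clusters, whereas SIX3 with SIX6 stood at 1.196. OTX2 was found in 36.9% of cells with SIX3 and 37.4% of cells without.

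**Figure D5:**
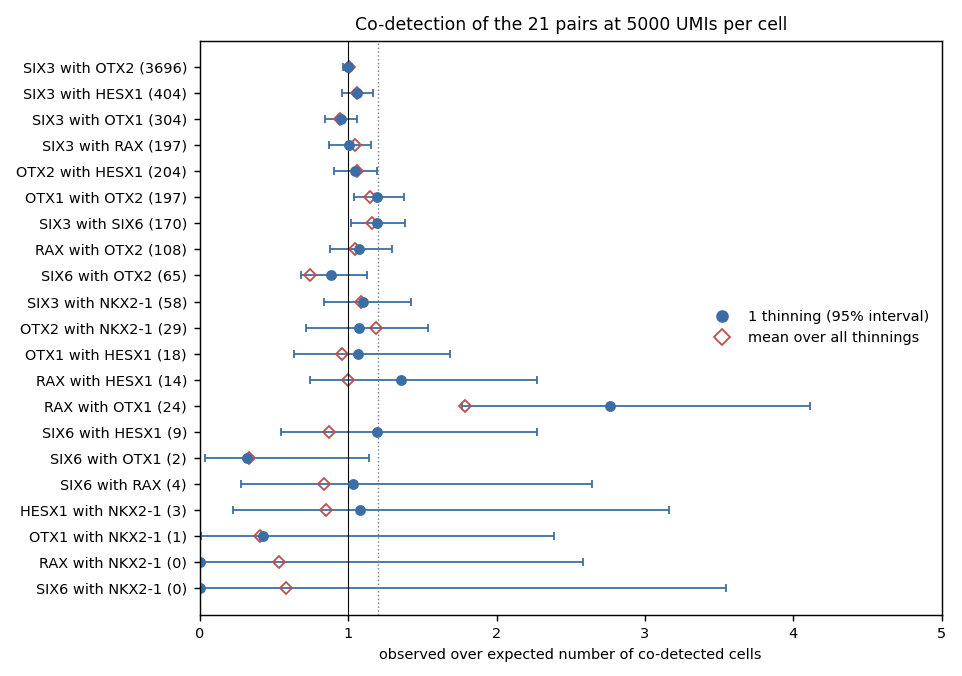
Observed over expected number of co-detected cells (horizontal axis) for the 21 pairs at 5000 UMIs per cell, ordered by expected number, with observed cells in brackets; filled points are 1 thinning with 95% intervals and open diamonds the mean over all thinnings. RAX with OTX1 is the pair farthest above the dotted line at 1.2, and its mean over thinnings is 1.79.

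Few cells showed more than a pair of these genes at equal depth. None of the 7 was found in 16.0% of the thinned cells, 1 in 51.5%, 2 in 29.2%, 3 in 3.08% and 4 in 0.180%, and 1 cell held 5. SIX3 alone was the most frequent state (5659 cells), followed by SIX3 with OTX2 (3279 cells), none (2220 cells) and OTX2 alone (1298 cells). In contractile NPC-like cells 34.0% had none of the 7, against 12.3% of forebrain NPC-like cells and 58.1% of the 105 thinned differentiating-progenitor-like cells.

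Genes of the fixed lists separated the rare members in the same thinned cells. SIX6 went with DLX5 (56 cells against 19.9, ratio 2.82, 2.13 to 3.66), and the ratio was 3.26 within the forebrain NPC-like class. It also went with VAX1 (1.73), SIX3-AS1 (1.72) and L1TD1, an RNA-binding protein of pluripotent cells (1.65). With EMX2 it stood at 0.374 (17 cells against 45.4). OTX1 stood on the other side for EMX2 at 1.60 (163 cells against 102), DLX5 at 0.291 (13 against 44.6), VAX1 at 0.737 and SIX3-AS1 at 0.639, while with L1TD1 it stood at 1.02. RAX stood at 1.49 with the cortical regulator FEZF2 (93 cells against 62.3). Apart from the 3.26, these ratios are over all classes. FEZF2 (61.1 against 9.95 CPM) and EMX2 (65.4 against 5.02 CPM) were themselves higher in forebrain than in contractile NPC-like cells. DLX5 was lower in forebrain than in contractile NPC-like cells (20.1 against 53.8 CPM). These class differences enter the ratios over all classes given with the 3 genes, among them that of OTX1 with DLX5. With PAX6 the ratios of RAX (1.36) and OTX1 (1.37) lay below the 95th percentile of all genes set against them, 1.44 for RAX and 1.39 for OTX1.

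OTX2 was found more often than expected with GSX2 (1.90) and DLX2 (1.82), on 33 and 25 shared cells, and SIX3 less often with GSX2 (0.443). These are genes that were high in cluster 6, and with the expected number summed over clusters the OTX2 ratios came to 1.36 and 1.42. NKX2-1 stood at 1.82 with PTCH1 (15 cells against 8.26) and 1.57 with the cofactor EYA4 (35 against 22.3), both below the 95th percentile of 1.85 over all genes. It stood at 0.498 with FEZF1 and 0.425 with L1TD1, on 10 and 8 cells.

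Genes whose detection was most like each member's were picked by the ratio of their shares in forebrain NPC-like cells with and without it, among at least 14030 genes found in at least 1% of these cells. For SIX3 the 3 were NPR1 (2.34), FGF17 (2.33) and SIX6 (2.25), on 119 to 260 cells, and for OTX2 they included CRYL1 (1.94) and LINC00461 (1.81). RAX was the second of the 3 for OTX1 (2.57, 24 of 438 cells), between LURAP1 (2.67) and SPRYD3 (2.56). These are the same 24 cells of 1 thinning as above, where the mean over all thinnings was 13.6 cells. The rank was not followed over other thinnings. For SIX6 TLR4, DUSP5 and GNG10 led on 6 to 10 cells each, for RAX CNBD1, ACTN2 and AC009226.1 on 8 to 11, for HESX1 AC092376.2, NOL3 and TBX15 on 13 to 17, and for NKX2-1 GEM, SFRP4 and TLL1, on 5 to 6 cells. These were picked as the highest of many ratios and are given as a description.

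Most later genes of the eye and of the hypothalamus were scarce. Of the 17 genes of the optic vesicle and retina 2 were above 10 CPM, VAX1 (44.9 CPM) and the pigment gene PMEL (38.4 CPM), and the list median was 0.432 CPM. RAX2, a relative of RAX, had no UMI. Of the 14 hypothalamic and ventral genes PTCH1, the receptor of hedgehog proteins, was the one above 10 CPM (25.3 CPM), the list median was 0.189 CPM, and NKX2-4 and FOXA2 had no UMI. The 8 telencephalic genes had a median of 46.8 CPM, and all 8 were at least 1.5-fold lower in the contractile class, with a median ratio of 0.196. Over all genes compared 38.7% were lower and 12.4% higher by that much, and most of the shares that follow rest on few genes. By the same measure 4 of the 5 other eye field genes were lower and 1, TBX3, was higher. Of the optic vesicle genes 10 passed the minimum of 50 UMIs, with 3 lower and 4 higher. Of the hypothalamic and ventral genes 7 passed, with 3 lower and 1 higher. TBX3 (62 contractile against 4 forebrain UMIs), SHH (187 against 8) and EN1 (73 against 2) met that minimum through the contractile class alone. Genes so sparse elsewhere could be called in that direction only. Of the 15 genes for relatives and cofactors of SIX3 13 passed, 9 of them lower and 0 higher by that measure. Of the 7 early epiblast genes 5 passed, with 3 lower and 1 higher, of the 11 midbrain and hindbrain genes 6, with 2 lower and 2 higher, and of the 7 pituitary and placode genes 4, with 2 lower and 2 higher.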

How the data were processed

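Single-cell RNA-seq counts of 1 hHAR123 library were used. The authors deposited raw UMI counts per gene and barcode, made with Cell Ranger 7.0.1 at default settings on GRCh38 (annotation version not given in the sources used here), and used Seurat 4.4.0 later. Their quality filter was applied. Counts were scaled to 10000 per cell and logged after adding 1. The 2000 most variable genes, without the 7 genes and their 3 antisense transcripts (SIX6, NKX2-1 and OTX2-AS1 would have entered), were reduced to 30 components and clustered (20 neighbours, Leiden resolution 0.5, scanpy 1.11.5, leidenalg 0.10.2). A class needed 3 markers at 20 CPM and 3-fold above other cells. Failing that, 3 forebrain and 3 progenitor markers at 50 CPM made a cluster forebrain NPC-like. Several marker lists hold genes the study picked on its own libraries. Scrublet called 1 barcode at its threshold of 0.774, so the caller failed and every barcode was left in.

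Levels are pooled CPM with exact Poisson intervals. Shares have Clopper-Pearson intervals and ratios exact conditional intervals. Thinning was without replacement (seed 1). Classes were compared over genes with at least 50 UMIs. A count of 0 was given the limit of 3 counts. Scripts were tested on simulated data. The genes named were the 7 members, their antisense transcripts, 8 fixed lists and the 3 highest-ratio genes per member, and COL8A1 and class markers were added after values were seen. The members and lists were chosen with earlier results of these data known. Some genes of the lists are not reported here.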

Additional observations from a re-analysis of the deposited data

Results flagged for a closer look

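The 801 barcodes removed by the quality filter (median 2779 UMIs) were not used in the comparisons, and all 7 genes were found in them above the 0.231 CPM that a count of 0 would allow. Their levels were 163.1 CPM for SIX3, 48.0 CPM for OTX2, 3.16 CPM for HESX1, 2.70 CPM for OTX1, 1.85 CPM for RAX, 1.62 CPM for SIX6 and 0.616 CPM for NKX2-1. The pooled values rest largely on 94 deep barcodes (median 103907 UMIs), which held 1582 of the 2117 SIX3 UMIs. In the 520 barcodes with too few genes OTX1 stood at 9.86 CPM (4.73 to 18.1, 10 UMIs), against 5.22 CPM in kept cells.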

How the results depend on the processing

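The count of 2 pairs at a co-detection ratio of 1.2 or more was 7 when cells were thinned to 2500 UMIs, 1 as an expectation over all thinnings, and 4 in forebrain NPC-like cells alone, with a mitochondrial limit of 0.05, and with at least 2 UMIs required. It stayed between 2 and 3 in the other 7 settings, 1 of which (leaving out cluster 8) was chosen after seeing the data. RAX with SIX6 moved to 0 when thinned to 2500 UMIs and with at least 2 UMIs required, and otherwise lay between 0.611 and 1.29. With at least 2 UMIs RAX with OTX1 and RAX with HESX1 were also at 0. At that setting a 0 for RAX carries no information, because few thinned cells held 2 RAX UMIs. In forebrain NPC-like cells 271 thinned RAX UMIs lay in 263 cells, and in contractile cells 8 lay in 8. RAX with HESX1 was at 0.996 over all thinnings and 0.989 with no quality filter. RAX with OTX1 lay between 1.48 and 2.86 in all settings but the one with at least 2 UMIs.

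The count of 6 genes lower in contractile NPC-like cells stayed between 4 and 6 in all 10 alternatives. SIX3 reversed to 1.44 by UMIs per cell, and SIX6 reversed to 0.952 with the members allowed among the variable genes. The ratios of OTX1, OTX2, RAX, HESX1 and NKX2-1 stayed below 1 in all 10. Depth limits the pairs of rare genes, 7 of which had fewer than 10 cells in common. No paired analysis was possible because there is 1 library.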
